A study of Mus musculus with 204 samples.

Results

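The P2Y receptor genes P2ry1, P2ry2, P2ry4, P2ry6 and P2ry12 were followed through single cells of VGLUT2-tdTomato mice, picked by hand out of dissociated distal colon. These 5 genes were taken by name from the 49492 gene rows of the deposited table. In these mice a red fluorescent protein reports Slc17a6, the gene of VGLUT2, a transporter that loads glutamate into synaptic vesicles. All cells shared this genotype and tissue, the muscle layers with the myenteric plexus had been dissociated and kept in culture overnight, and no treatment was given in the labels. The cells came from 3 plates of 66, 66 and 72 cells, with no animal or culture named, so each plate counts as 1 sample and no p-value is given.

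P2Y receptors are G protein-coupled receptors for extracellular nucleotides. P2Y1 answers mainly to ADP, P2Y2 to ATP and UTP, P2Y4 to UTP in humans and also to ATP in rodents, and P2Y6 to UDP, and all of these can act through Gq, phospholipase C and calcium release, whereas P2Y12 answers to ADP and acts through Gi. In the gut wall purines are released by enteric neurons as inhibitory transmitters to muscle, where P2Y1 is the main receptor of that response, and they also act between neurons and glia.

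A transcript was counted as detected in a cell at 10 reads per 1000000 (CPM) or more. Cells were called neuronal where at least 50% of 13 pan-neuronal genes were detected, which held for 74.5% of the cells (53, 45 and 54 on plates 1, 2 and 3) and left 52 other cells (13, 21 and 18). The cells also fell into 57 with Chat and without Nos1 (Chat-only), 50 with both, 31 with Nos1 and without Chat (Nos1-only) and 66 with neither. Chat encodes the acetylcholine-synthesising enzyme and Nos1 the neuronal nitric oxide synthase, the usual markers of cholinergic and nitrergic enteric neurons. Chat was detected in 106 neuronal cells and 1 other cell, and Nos1 in 80 neuronal cells and 1 other cell. Slc17a6 itself reached 10 CPM in 89 neuronal cells and not in the other 63. Although all cells were picked as fluorescent neurons, 25.49% of all cells did not carry the neuronal list. A smooth muscle marker list was carried by 26.96% of all cells and an endothelial one by 11.8%. Depth ranged between 453035 and 14310625 reads per cell, with a median of 4181978 in neuronal and 3980275 in other cells, and of 6114044 in Nos1-only cells against 4204530 in Chat-only cells. Plate 1 held 23 Chat-only but only 3 Nos1-only cells, so log2 ratios of these classes were taken on plates 2 and 3, which share a library naming, while pooled shares and ranges cover the 3 plates.

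In the mm10 build with the GENCODE M21 annotation, P2ry1 lies on chromosome 3 at 61002795 to 61008982 on the plus strand, and P2ry12 on the same chromosome at 59216272 to 59262871 on the minus strand. P2ry2 (chromosome 7, 100996568 to 101012866) and P2ry6 (chromosome 7, 100937630 to 100974649) lie close together on the minus strand, and P2ry4 lies on chromosome X at 100590154 to 100594869, also on the minus strand. RefSeq promoter windows of build GRCm38.p6, which run over 250 bases before and 50 bases after a gene's start, were listed for 4 of the 5 genes, with P2ry6 named here without one and the first of 2 windows taken for P2ry2. Windows are printed for P2ry1 and P2ry2, whose reads lay in neuronal and in other cells, for P2ry12, which was almost silent, and for Tac1, which was detected in most Chat-only cells with P2ry1. Capitals mark exact matches on either strand to any of 5 motifs: the letters TATAAA of the TATA-binding protein, the GC box GGGCGG, the cyclic AMP response element core TGACG, the homeodomain core TAATTA and the E-box CAGCTG. No match overlapped another in these windows.
P2ry1, chr3:61002535-61002834, plus strand: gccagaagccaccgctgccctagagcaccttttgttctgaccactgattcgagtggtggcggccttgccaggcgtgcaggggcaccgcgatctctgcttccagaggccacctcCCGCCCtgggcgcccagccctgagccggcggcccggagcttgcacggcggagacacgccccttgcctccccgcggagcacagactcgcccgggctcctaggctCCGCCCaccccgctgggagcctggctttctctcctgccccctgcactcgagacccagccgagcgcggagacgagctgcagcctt
P2ry2, chr7:101012004-101012303, minus strand: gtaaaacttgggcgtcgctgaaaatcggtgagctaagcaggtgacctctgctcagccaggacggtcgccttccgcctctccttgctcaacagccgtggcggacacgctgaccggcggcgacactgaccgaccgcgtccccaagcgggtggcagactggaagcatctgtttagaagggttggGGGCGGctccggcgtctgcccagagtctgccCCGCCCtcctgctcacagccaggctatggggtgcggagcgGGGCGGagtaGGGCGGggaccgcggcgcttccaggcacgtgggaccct
P2ry12, chr3:59262936-59263235, minus strand: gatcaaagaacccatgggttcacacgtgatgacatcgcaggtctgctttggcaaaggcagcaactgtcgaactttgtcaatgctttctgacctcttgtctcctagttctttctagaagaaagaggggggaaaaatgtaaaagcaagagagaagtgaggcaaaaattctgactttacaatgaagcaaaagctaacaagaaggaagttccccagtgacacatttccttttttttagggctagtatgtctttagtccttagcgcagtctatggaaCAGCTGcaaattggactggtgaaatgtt
Tac1, chr6:7554811-7555110, plus strand: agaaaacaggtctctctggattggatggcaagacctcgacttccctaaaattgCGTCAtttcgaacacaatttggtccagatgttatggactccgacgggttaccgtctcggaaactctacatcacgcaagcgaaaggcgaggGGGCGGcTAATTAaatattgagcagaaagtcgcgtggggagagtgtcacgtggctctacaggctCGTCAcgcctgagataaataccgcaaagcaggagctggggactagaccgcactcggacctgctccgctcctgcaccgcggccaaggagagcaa

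The P2ry1 and P2ry2 windows had a GC content of 70.7% and 67.3%, with 25 and 28 CpG pairs, against 42.3% and 4 CpG pairs in the P2ry12 window. The median over 27025 promoters was 52.7%. The GC box occurred 2 times at P2ry1, 4 times at P2ry2, 1 time at Tac1 and not at P2ry12, and 35.9% of all promoters held at least 1. TGACG occurred 2 times at Tac1 and at none of the P2Y windows printed (21% of all promoters), TAATTA 1 time at Tac1 (5.31%) and CAGCTG 1 time at P2ry12 (16.1%). TATAAA, found in 14.2% of promoters, was in none of these windows. P2ry1 and Tac1, which were often detected in the same Chat-only cells, shared the GC box alone among the letters searched. These matches describe the letters and show no binding.

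Over all cells P2ry1 was the receptor found most often, in 47 cells (23.0%, exact Clopper-Pearson 95% interval 17.4% to 29.4%). P2ry6 followed with 31 cells (15.2%, 10.6% to 20.9%) and P2ry2 with 24 cells (11.8%, 7.69% to 17.0%). P2ry12 was detected in 4 cells (1.96%) and P2ry4 in 1 (0.490%). The intervals of P2ry1 and P2ry6 overlapped, as did those of P2ry6 and P2ry2, and they cover counting error only. Per kilobase, the mean level over all cells was 9.52 RPKM (reads per kilobase and 1000000 reads) for P2ry1, 8.08 for P2ry6, 2.13 for P2ry2, 0.34 for P2ry12 and 0.04 for P2ry4. Among cells in which each was detected, P2ry6 had the higher median, 38.98 RPKM, against 20.43 for P2ry1 and 13.94 for P2ry2. A single one of the 5 genes was detected in 74 cells, 2 of them in 15 cells and 3 in 1 cell, while 55.9% of the cells had none.

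**Figure D1:**
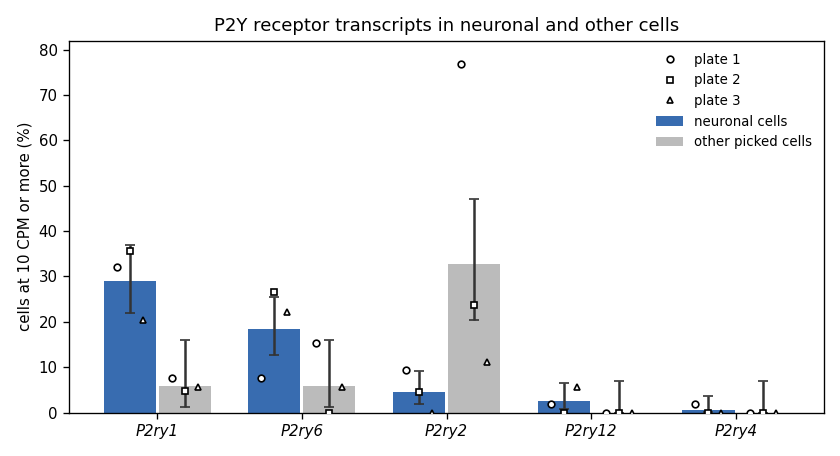
Share of cells in which each P2Y receptor transcript reached 10 CPM (y axis, percent), in neuronal cells (blue) and 52 other picked cells (grey). Bars are all plates pooled with exact 95% intervals, and open symbols are the plates; P2ry1 stood higher in neuronal cells and P2ry2 in other cells on each plate.

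P2ry1 was mostly neuronal. It was detected in 44 neuronal cells (28.9% of them, 21.9% to 36.9%) and in 3 of the 52 other cells (5.77%, 1.21% to 16.0%). By plate the counts were 17 of 53, 16 of 45 and 11 of 54 neuronal cells, against 1 of 13, 1 of 21 and 1 of 18 other cells. Mean levels were 56.2, 80 and 30.2 CPM in neuronal cells on plates 1, 2 and 3, against 4.48, 2.56 and 0.65 CPM in other cells, which gave log2 ratios (with 1 CPM added) of 3.38, 4.51 and 4.24. A gene was called where this ratio was at least 2 in size with 1 sign on every plate used; over all 11890 genes tested, 9.76% were called higher in neuronal cells and 2.02% higher in other cells, and P2ry1 was 1 of the calls. With a pseudocount of 10 CPM its ratios were 2.19, 2.84 and 1.91, so plate 3 fell short and the call ended.

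P2ry1 was also divided among neurons. In Chat-only cells it was detected in 25 of 57 (43.9%, 30.7% to 57.6%), in 10 of the 50 cells with both Chat and Nos1 (20%, 10.0% to 33.7%), and in 7 of 31 Nos1-only cells (22.6%, 9.59% to 41.1%). By plate the counts were 12 of 23, 8 of 18 and 5 of 16 in the Chat-only class, against 0 of 3, 4 of 15 and 3 of 13 in the Nos1-only class. The lowest, median and highest values were 0, 1.28 and 738.24 CPM in Chat-only cells, against 0, 0 and 80.75 CPM in Nos1-only cells, so the groups overlapped at the low end. Where it was detected, its median was 220.2 CPM in Chat-only cells, 51.04 CPM in cells with both and 23.96 CPM in Nos1-only cells. On plate 2 the mean was 158 CPM in Chat-only and 8.97 CPM in Nos1-only cells (log2 ratio 4.00), and on plate 3 it was 90.3 CPM in Chat-only and 7.36 CPM in Nos1-only cells (log2 ratio 3.45). Among 12772 genes tested over these plates, 1.68% were called higher in Chat-only cells and 0.900% higher in Nos1-only cells, with P2ry1 among the first and P2ry6 among the second. The intervals of the detected shares of Chat-only and Nos1-only cells overlapped for P2ry1. In neuronal cells that carried no marker list of another cell type, the mean log2 ratio over the plates was 3.86 for P2ry1, against 3.72 with all cells.

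**Figure D2:**
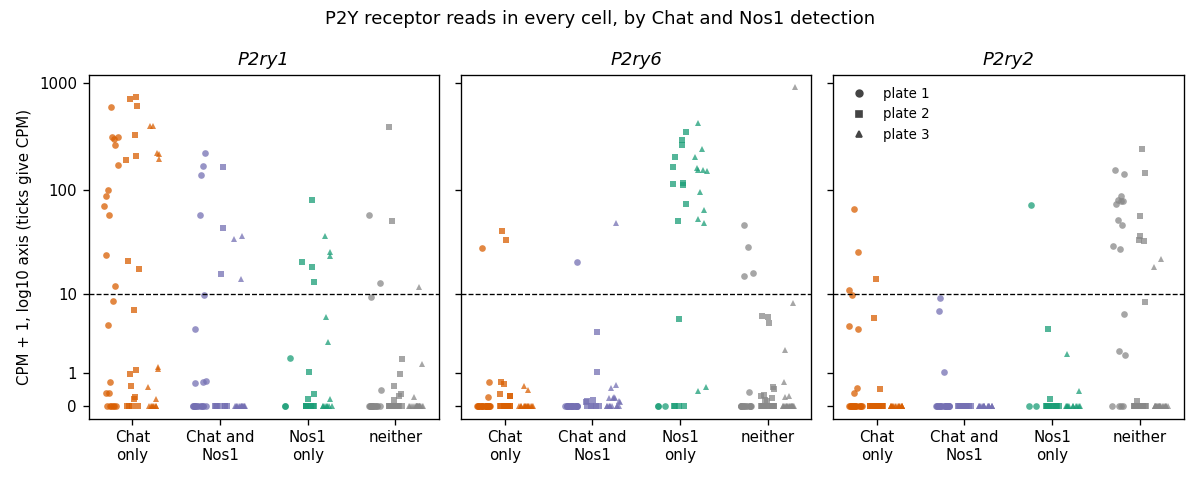
Level of P2ry1, P2ry6 and P2ry2 in every cell (y axis, CPM + 1 on a log10 axis), by detection of Chat and Nos1 and by plate (symbols). The dashed line is 10 CPM; Chat-only cells reach the highest P2ry1 levels, and P2ry6 lies above 49 CPM in most Nos1-only cells of plates 2 and 3 but in none of the 3 on plate 1.

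Within Chat-only cells P2ry1 went with Tac1, which encodes the precursor of substance P and marks excitatory motor neurons of the gut. Of the 25 Chat-only cells with P2ry1, 23 also had Tac1 (92%), and of the 32 without P2ry1, 7 had it (21.9%). By plate this was 11 of 12, 7 of 8 and 5 of 5 cells with P2ry1, against 2 of 11, 2 of 10 and 3 of 11 cells without. The median Tac1 level was 2207 CPM in Chat-only cells with P2ry1 and 1.37 CPM in those without.

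Read by Tac1 level, with bounds chosen after the values were seen, P2ry1 was detected in 22 of 23 Chat-only cells at 500 CPM of Tac1 or more (95.7%, 78.05% to 99.89%), against 2 of 27 cells under 10 CPM (7.41%, 0.910% to 24.3%). Plates 1, 2 and 3 gave 11 of 11, 7 of 7 and 4 of 5 of these upper cells, and the exception had no P2ry1 read. In the cells at 500 CPM or more, P2ry1 ranged between 0 and 738.24 CPM with a median of 220.19 CPM. Among cells with both Chat and Nos1, fewer of those with P2ry1 had Tac1. It was detected in 3 of the 10 cells with P2ry1 and in 4 of the 40 without. Tac1 reached 3944 CPM in these 10 cells but no more than 197.2 CPM in the 40, all of which thus lay under 500 CPM of Tac1.

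The gene behind the reporter, Slc17a6, gave overlapping shares of P2ry1 cells. Among neuronal cells P2ry1 was detected in 25 of 89 with Slc17a6 (28.1%, 19.1% to 38.6%) and in 19 of 63 without it (30.2%, 19.2% to 43.0%). Within Chat-only cells Slc17a6 was detected in 17 of 25 cells with P2ry1 (68%) and in 23 of 32 without it (71.9%), while the median Chat level was 207.5 CPM with P2ry1 and 77.8 CPM without.

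**Figure D3:**
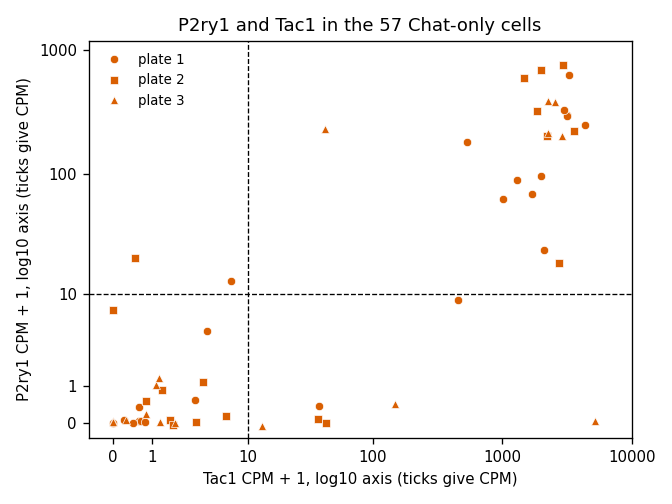
P2ry1 (y axis) against Tac1 (x axis) in the 57 Chat-only cells, both as CPM + 1 on log10 axes, with plates as symbols and points moved slightly along y to show overlaps. Dashed lines are 10 CPM; 22 of the 23 cells at 500 CPM of Tac1 or more lie above the P2ry1 line.

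By Pearson's r of log2(CPM + 1), centred within plates over the neuronal cells, the genes most like P2ry1 among 11641 candidates were Ffar3 (0.72), Tmc3 (0.72), Tac1 (0.69), Nfatc1 (0.67) and Slitrk4 (0.66). Ffar3 encodes a receptor for short-chain fatty acids and Nfatc1 a calcium-regulated transcription factor. For Ffar3 the r was 0.82, 0.67 and 0.66 on plates 1, 2 and 3. Ffar3 was detected in 22 of 25 Chat-only cells with P2ry1 and in 4 of 32 without it, and Tmc3, of the transmembrane channel-like family, in 21 of 25 with and in 4 of 32 without. These r values describe likeness over cells that share plates, and the same cells chose the genes.

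P2ry2, the ATP and UTP receptor, was detected more often in other cells than in neuronal cells. It was detected in 7 neuronal cells (4.61% of them, 1.87% to 9.26%) and in 17 of 52 other cells (32.7%, 20.3% to 47.1%). By plate the counts were 5 of 53, 2 of 45 and 0 of 54 neuronal cells, against 10 of 13, 5 of 21 and 2 of 18 other cells. Mean levels were 4.71, 6.15 and 0.04 CPM in neuronal cells on plates 1, 2 and 3, against 63.9, 14.5 and 2.28 CPM in other cells, with log2 ratios of -3.51, -1.12 and -1.65. The direction was the same on each plate, but the ratios on plates 2 and 3 were under 2 in size. Plate 3 was also under the 5 CPM mean needed for a call. Plate 2 turned on single cells: its ratio was -0.34 without the highest of the other cells, and -3.74 without the neuronal cells that carried a marker list of another cell type, which removed a neuronal cell at 244.1 CPM.

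Of the 7 neuronal cells with P2ry2, 6 also carried a marker list of another cell type. P2ry2 was thus detected in 6 of 49 neuronal cells with such a list (12.2%, 4.63% to 24.8%) and in 1 of the others (0.971%, 0.0246% to 5.29%). The neuronal cell of plate 2 at 244.1 CPM had the highest P2ry2 level of all cells, carried the glial list and had 790523 reads. Among the other cells P2ry2 was detected in 9 of 14 that carried the endothelial list of 6 genes (64.3%, 35.1% to 87.2%) and in 8 of 38 that did not (21.1%, 9.55% to 37.3%). Plate and list went together here: on plate 1 it was detected in 8 of 10 cells with the endothelial list and in 2 of 3 without, on plate 2 in 1 of 2 with and 4 of 19 without, and on plate 3 in 0 of 2 with and 2 of 16 without. The summed level of the endothelial list ranged between 0 and 2268 CPM (median 5.09) in neuronal cells, against 0 and 8496 CPM (median 15.3) in other cells, and its part in the P2ry2 difference was not tested.

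P2ry4 and P2ry12 were close to absent from these reads. P2ry4, the second UTP receptor, had a read in 6 cells and reached 10 CPM in 1, a plate 1 cell with both Chat and Nos1 at 20.0 CPM; the next cell, also on plate 1, had 9.1 CPM, and none of the other cells reached the threshold. P2ry12, known from platelets and microglia, was detected in 4 neuronal cells (2.63% of them, 0.722% to 6.60%) and in 0 of the 52 other cells, where 3 cells, the limit that a count of 0 allows, would be 5.77%. Its levels were 76.7, 34.9 and 24.9 CPM in cells of plate 3 and 33.2 CPM in a cell of plate 1. Nos1 was detected in all 4, of which 2 were Nos1-only and 2 had Chat as well, and 3 of the 4 also had P2ry1. P2ry12 overlaps Med12l on the opposite strand, which had a read in 3 of these cells and was detected in 2, and with the counting strand not given in the sources used here their reads cannot be told apart. P2ry1 likewise overlaps Gm37035 on the opposite strand. Gm37035 had a read in 46 cells of the series, of which 35 were among the 47 P2ry1 cells. It was detected in 17 of these 47 and had no more than 212.87 CPM in them.

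P2ry6, the UDP receptor, was found mainly in the Nos1-only class. It was detected in 3 of 57 Chat-only cells (5.26%, 1.10% to 14.6%), in 2 of 50 with both Chat and Nos1 (4%, 0.488% to 13.7%) and in 21 of 31 Nos1-only cells (67.7%, 48.6% to 83.3%). Plates 1, 2 and 3 gave 1 of 23, 2 of 18 and 0 of 16 in the Chat-only class, against 0 of 3, 10 of 15 and 11 of 13 in the Nos1-only class. The lowest, median and highest values were 0, 0 and 40.82 CPM in Chat-only cells, against 0, 96.48 and 423.37 CPM in Nos1-only cells. Every detected Nos1-only cell had at least 49.29 CPM, above the highest Chat-only cell. Medians on plate 2 were 0 CPM in Chat-only and 112.5 CPM in Nos1-only cells, and on plate 3 they were 0 CPM in Chat-only and 152.2 CPM in Nos1-only cells. The log2 ratio of the means was -4.49 on plate 2 and -7.01 on plate 3, or -5.75 over both, and -6.19 over both in neuronal cells that carried no marker list of another cell type. Plate 1 differed: none of its 3 Nos1-only cells had a P2ry6 read, and its 4 neuronal cells with P2ry6 had no more than 28.4 CPM. Of these 4 cells 3 carried the leukocyte list, which no neuronal cell of plates 2 and 3 carried, and its part in their P2ry6 was not tested. With cells put in the class of whichever of Chat and Nos1 was higher by 4 times or more, plate 1 came in at a log2 ratio of -1.39, beside -4.69 and -7.02 on plates 2 and 3, and the call of P2ry6 ended.

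The presence of Nos1 alone did not mark the P2ry6 cells, since the 50 cells with Chat as well had so few. Divided by Nos1 level, with bounds chosen after the values were seen, P2ry6 was detected in 5 of 72 neuronal cells under 10 CPM of Nos1 (6.94%, 2.29% to 15.5%), in 2 of 47 at 10 to under 100 CPM (4.26%, 0.520% to 14.5%), in 5 of 16 at 100 to under 500 CPM (31.2%, 11.0% to 58.7%) and in 16 of 17 at 500 CPM or more (94.1%, 71.3% to 99.85%). Plates 2 and 3 gave 7 of 8 and 9 of 9 of these uppermost cells, and plate 1 held no cell at that level. P2ry1, read the same way, was detected in 27 of 72, 10 of 47, 2 of 16 and 5 of 17 cells. Level and class went together: Nos1 had no more than 280.5 CPM in cells with Chat as well. All 17 cells at 500 CPM or more were thus Nos1-only, and the separate parts of level and class were not tested.

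**Figure D4:**
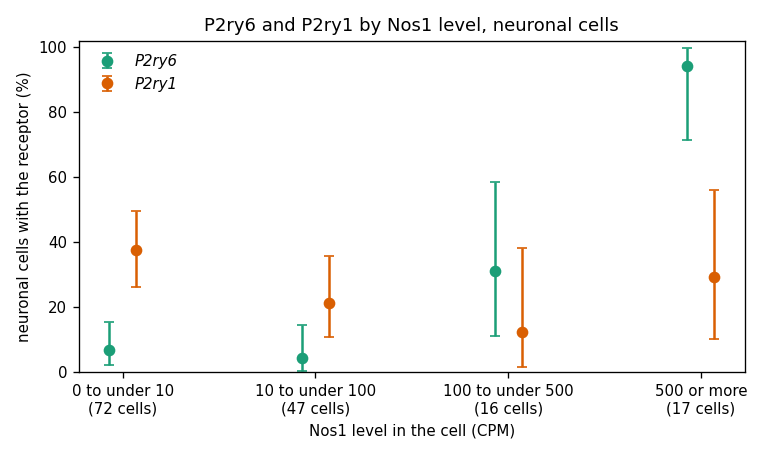
Share of neuronal cells with P2ry6 (green) and P2ry1 (orange) at 10 CPM or more (y axis, percent), by the Nos1 level of the cell (x axis, CPM, with the number of cells). Bars are exact 95% intervals. P2ry6 was in 16 of the 17 cells with the most Nos1, all of them Nos1-only, and P2ry1 in 5 of the 17.

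Within Nos1-only cells, those with P2ry6 had a median Nos1 level of 859 CPM and those without it 52.8 CPM. Gal, the galanin precursor gene, was detected in 20 of 21 Nos1-only cells with P2ry6 and in 4 of 10 without. On plate 2 it was detected in 10 of 10 with and 4 of 5 without. The gap in detection thus lay mainly in the 3 cells of plate 1 and the 2 of plate 3 without P2ry6, none of which reached 10 CPM of Gal. The level of Gal also differed on plate 2. Its median there was 2270 CPM in cells with P2ry6 (lowest 79.16) and 33.11 CPM in those without (highest 374). Vip, the other peptide gene known from inhibitory motor neurons, was detected in 13 of 21 cells with P2ry6 and in 4 of 10 without. On plate 2 it was detected in 6 of 10 with and 3 of 5 without, which are equal shares. The median Vip level on plate 2 was 475 CPM with P2ry6 (lowest 1.72) and 11.1 CPM without (highest 1276), so the ranges overlapped. The genes most like P2ry6 over neuronal cells, by the same r, included Plvap (0.73), C1ql1 (0.73), Gal (0.72) and Vwa3b (0.62). C1ql1, which encodes a secreted C1q-like protein, was detected in 20 of 21 Nos1-only cells with P2ry6 and in 2 of 10 without, and on plate 2 in 10 of 10 with and 1 of 5 without. For Plvap the r was 0.25, 0.81 and 0.82 on plates 1, 2 and 3, so the likeness rested on plates 2 and 3. Plvap is known from endothelium. The endothelial list was carried by 5 of the 57 Chat-only and 2 of the 31 Nos1-only cells, with median summed levels of 6.60 and 0.299 CPM. These values cover the classes and not the P2ry6 cells alone. Plvap reached 1569 CPM among all neuronal cells with P2ry6, but no more than 151.6 CPM in the Nos1-only ones. The part of endothelial RNA in the Plvap reads was not tested.

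By Slc17a6, P2ry6 stood on the side without the reporter's gene: it was detected in 3 of 89 neuronal cells with Slc17a6 (3.37%, 0.701% to 9.54%) and in 25 of 63 without it (39.7%, 27.6% to 52.8%). This split follows class and plate. Slc17a6 was detected in 1 of 15 and 0 of 13 Nos1-only cells on plates 2 and 3. Plate 1 held 44 of the 89 cells with Slc17a6 and 9 of the 63 without. Between neuronal and other cells P2ry6 gave no single direction. It was detected in 28 neuronal cells (18.4% of them, 12.6% to 25.5%) and in 3 of 52 other cells (5.77%, 1.21% to 16.0%), yet the log2 ratios of mean CPM were -1.44, 4.48 and -0.61 on plates 1, 2 and 3. On plate 3 the mean was 33.6 CPM in neuronal cells and 51.8 CPM in other cells, where 1 cell held 3650 of the 3663 P2ry6 reads at 920.8 CPM, the highest P2ry6 level in the series. That cell carried no pan-neuronal list but the leukocyte one, with Csf1r at 1780, C1qa at 1201, Adgre1 at 1411 and Cd68 at 1657 CPM, genes typical of macrophages, while Cx3cr1 and Aif1 had no read. Without the highest cell of the higher side on each plate, the ratio on plate 3 was 4.38.

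P2ry1 and P2ry6 met in 9 cells, all neuronal, and 7 of these were Nos1-only. All 7 Nos1-only cells with P2ry1 also had P2ry6, which is 7 of the 21 Nos1-only cells with P2ry6. In these 7 cells P2ry1 ranged between 13.1 and 80.8 CPM, far under the median of Chat-only cells with P2ry1. In Chat-only cells 1 of 25 with P2ry1 had P2ry6. Counting all 5 receptors, 30 Chat-only cells had 1 and 1 had 2, whereas among Nos1-only cells 14 had 1, 7 had 2 and 1 had 3.

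**Figure D5:**
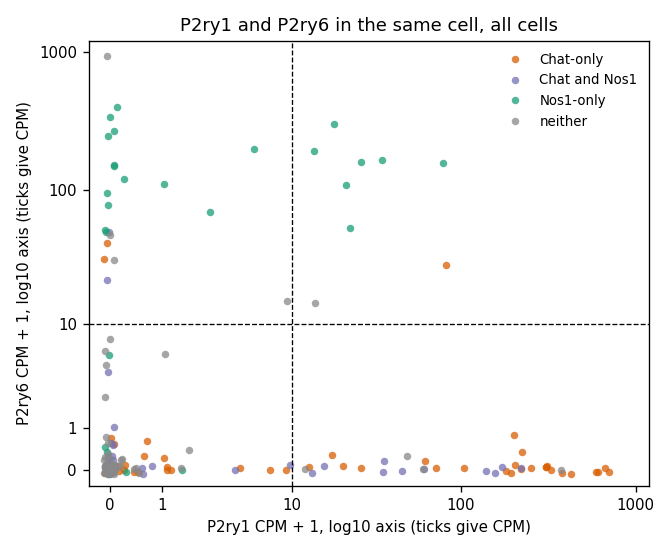
P2ry6 (y axis) against P2ry1 (x axis) in all cells, both as CPM + 1 on log10 axes, coloured by detection of Chat and Nos1, with points moved slightly to show overlaps. Dashed lines are 10 CPM; the highest P2ry1 levels lie along the x axis in Chat-only cells, and 7 of the 9 cells above both lines are Nos1-only.

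The other genes of nucleotide signalling were read in 8 lists of 56 measured genes. Among the other receptors of the P2Y family and its relatives, P2ry14, a receptor for UDP-sugars, was detected in 18 neuronal cells (11.8%) and in 6 of 52 other cells (11.5%), P2ry13 in 0 of either, and Gpr17 in 8 neuronal cells (5.26%) and 21 other cells (40.4%). None of the 5 measured reached the level needed for a call on every plate. Between neuronal and other cells Gpr17 fell short of that level on plate 1 alone, where 0 of 13 other cells had it. On plates 2 and 3 Gpr17 was detected in 12 of 21 and 9 of 18 other cells, with log2 ratios of -3.13 and -3.99. Of the ATP-gated P2X channel subunits, P2rx4 was detected in 65.8% of neuronal and 53.8% of other cells, and P2rx2 in 54.6% of neuronal and 3.85% of other cells. P2rx2 was the 1 of 3 P2X genes tested that was called higher in neuronal cells, with log2 ratios of 5.63, 3.49 and 6.45. Over all genes tested 9.76% were called higher in neuronal cells. Between Chat-only and Nos1-only cells 0 of 4 P2X genes tested were called, with a list median of -0.04 beside 0.09 over all genes tested. Over all genes 1.68% were called higher in Chat-only and 0.900% higher in Nos1-only cells.

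Adora1, the Gi-coupled adenosine A1 receptor, followed the P2ry1 side: it was detected in 49.1% of Chat-only cells (28) and in 1 Nos1-only cell (3.23%), and was called higher in Chat-only cells with log2 ratios of 4.98 and 4.93 on plates 2 and 3. Among neuronal cells it was detected in 22 of 44 with P2ry1 (50%) and in 18.5% of those without. Of the enzymes that break down extracellular nucleotides, Entpd3 was detected in 76.97% of neuronal and 1.92% of other cells (log2 ratios 6.46, 6.08 and 7.08), and Enpp1 was called higher in Nos1-only cells, with log2 ratios Chat-only over Nos1-only of -2.12 and -3.13. The vesicular nucleotide transporter gene Slc17a9 was detected in 12 neuronal cells (7.89%) and in 0 of 52 other cells, and the channel gene Panx1 in 71.7% of neuronal and 34.6% of other cells. Between Chat-only and Nos1-only cells, the calls were 1 of 1 adenosine receptor gene, 1 of 2 ectoenzyme genes and 0 of 2 release genes tested, where over all genes tested 1.68% were called higher in Chat-only and 0.900% higher in Nos1-only cells. Between neuronal and other cells, 1 of 1, 1 of 5 and 1 of 3 genes of these lists were called, all higher in neuronal cells, namely Adora1, Entpd3 and the channel gene Panx2, where over all genes tested 9.76% were called higher in neuronal cells.

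Downstream, the Gq-family genes Gnaq and Gna11 were detected in 94.1% and 94.7% of neuronal cells, against 75% and 80.8% of other cells, and Plcb4, a phospholipase C gene, in 78.3% of neuronal and 46.2% of other cells. Between Chat-only and Nos1-only cells 0 of 8 Gq genes tested were called, and the median log2 ratio of this list was -0.01. Over all genes tested 1.68% were called higher in Chat-only and 0.900% higher in Nos1-only cells. Gna14 of this list had log2 ratios of 5.70 on plate 2 and 1.73 on plate 3, the second short of a call. Between neuronal and other cells 1 of 8 was called, Gna14, at log2 ratios of 5.03, 5.25 and 5.25, and the list median was -0.17 beside 0.30 over all genes tested. That share of 1 in 8 is near the 9.76% of all genes called higher in neuronal cells. On the Gi side, where P2Y12 acts, Kcnj5 encodes a subunit of G protein-gated potassium channels. It was detected in no Chat-only cell and in 67.7% of Nos1-only cells (21), with log2 ratios of -5.64 and -7.33. This was the 1 call among 8 Gi genes tested, beside 0.900% of all genes called higher in Nos1-only cells. Between neuronal and other cells 4 of 7 Gi genes were called, all higher in neuronal cells, namely Gnao1, Gnaz, Kcnj3 and Kcnj6, beside the same 9.76% over all genes tested. Kcnj5 was often detected with P2ry6: 20 of 28 neuronal cells with P2ry6 had Kcnj5, against 2 neuronal cells (1.61%) without it, a pair chosen after the values were seen. Kcnn3, a small-conductance potassium channel opened by calcium, had a share of 87.7% in Chat-only and 35.5% in Nos1-only cells. It was called higher in Chat-only cells (log2 ratios 2.49 and 2.68), 1 of 2 genes of its list tested, beside 1.68% of all genes. Between neuronal and other cells Kcnn3 was also the 1 call of 2 (4.61, 4.97 and 3.28), beside 9.76% of all genes. Yet among neuronal cells Kcnn3 was nearly as frequent with P2ry1 (33 of 44, 75%) as without it (73.1%).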

How the data were processed

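Each cell had 1 library, made per the labels' protocols with a plate kit; the kit adds no molecular identifier, so PCR copies count as reads. The authors deposited log2(RPKM + 1) per gene and cell; base and added 1 were read from the values. The submitters' processing notes name mm10; the aligner, the counter and the use of strand were not given in the sources used here. The design was fixed in CPM: undoing the log and multiplying by GENCODE M21 exon length and total reads gave whole reads for 100% of 2375655 values above 0, within a tolerance of 1e-04 (31368 annotated and 6267 inferred lengths, 11857 genes without reads). These steps were tested on simulated data.

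CPM is recovered reads per 1000000. Detection needed 10 CPM, and carrying a list needed 50% of its measured genes. Log2 ratios of mean CPM with a pseudocount of 1 CPM were taken within plates with at least 5 cells of each class, understate differences of low genes, and were tested for a call where the mean reached 5 CPM in 1 class on each plate. All cells were kept and no doublet caller was run. Counts were compared for 6846 same-plate pairs, and the closest differed by more than sampling noise. Cells are not replicates, so no test was run; intervals are exact Clopper-Pearson 95% intervals for counting error only, with a limit of 3 cells where a count is 0.

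Named genes were the 5 receptors, Chat, Nos1, Slc17a6, list members detected in at least 10% of neuronal cells (at most 4 described per list), and for receptors in at least 15 neuronal cells the 5 genes with the highest r, of which 1 is not reported here; P2ry13, Gpr17, Slc17a9, Enpp1, Gna14, Kcnj5, Kcnj6, Panx2 and Vip were added for their role or after their values were seen. The receptors, lists and rules were chosen with earlier results of these data known. Alternatives were each plate left out, other thresholds, pseudocounts, list and class rules, thinning to 1000000 reads, and removal of cells or reads. Python 3.11.15, numpy 2.4.6, pandas 2.3.3, scipy 1.17.1 and matplotlib 3.10.9 were used.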

Additional observations from a re-analysis of the deposited data

How the results depend on the processing

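Of 49 recomputed log2 ratios 42 kept their direction within 1 SD over plates, and of 50 recomputed shares of neuronal cells 41 stayed within their interval. Leaving out 1 plate cannot move a mean of 2 or 3 plates by a whole SD, so those ratios could only change sign. The Chat-only over Nos1-only ratios without plate 1 repeat the main values, because plate 1 was not used in them. The SD was 3.21 for the neuronal over other ratio of P2ry6, a wide margin. The Chat-only over Nos1-only ratio of P2ry1 (3.72 over plates) was 3.29 at a 50 CPM threshold, 3.17 without reads under 1% of the plate's highest count, 2.84 with a pseudocount of 10 CPM and 4.26 with classes set by a ratio of 4, which brought in plate 1. That of P2ry6 (-5.75) was -4.37 with classes set by a ratio of 4, where plate 1 was at -1.39 and ended the call, and -3.50 with a pseudocount of 10. The neuronal over other ratio of P2ry1 (4.04) was 2.32 with a pseudocount of 10, where plate 3 was at 1.91 and ended the call; a larger pseudocount shrinks ratios by construction. The neuronal over other ratio of P2ry6 (0.81) lay between -1.03 and 1.94 when each plate was left out, negative without plate 2. The share of neuronal cells with P2ry1 was 18.4% at 50 CPM and 50% at 1 read, that with P2ry6 was 34.9% at 1 read, and that with P2ry2 was 0.971% without cells carrying another list and 16.4% at 1 read. That with P2ry12 was 0.658% at 50 CPM, and that with P2ry4 was 0% at 50 CPM or 5 RPKM and between 0% and 1.02% when each plate was left out. The 50 CPM threshold does not enter the neuronal over other ratios, and ratios of P2ry4, P2ry12 and, between neurons, P2ry2 were not recomputed because their means were too low. No paired analysis was possible because the plate's cell numbers only name cells and no result comes from a test.

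Thinned to 1000000 reads, which left out 19 shallower cells, the share with P2ry6 was 5.46% of 55 Chat-only cells and 84% of 25 Nos1-only cells, and that with P2ry1 was 45.5% and 28% of the same cells. P2ry2 was then detected in 5.84% of neuronal and 35.4% of other cells. With 1 sample per plate, plates 2 and 3 from a shared library naming and few Nos1-only cells on plate 1, the P2ry6 pattern rests on plates 2 and 3. A transcript absent at these depths may still be present in the cell.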
